A study of Mus musculus with 20 samples.

Results

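The core circadian clock was read out as 10 genes in bulk RNA-seq of cells sorted from mouse dorsal epidermis: Arntl, Clock, Per1, Per2, Per3, Cry1, Cry2, Nr1d1, Nr1d2 and Dbp. The genes were taken by name from a table of 53380 genes over 20 libraries, and each name matched 1 row. All 10 passed the filter on low values, a normalised count of at least 10 in at least 3 libraries, as did 17204 genes in all. The study sorted Thy1hi keratinocytes (α6+Sca1+Thy1hi, 4 libraries), Thy1- keratinocytes (α6+Sca1+Thy1-, 4 libraries), lineage-labelled Thy1hi YFP+ keratinocytes (3 libraries), hair follicle stem cells (HFSC, α6+Sca1-CD34+, 4 libraries) and dendritic epidermal T cells (DETC, α6-Sca1lowThy1+, 5 libraries). In DETC, 2 columns carry numbers that match no sample title, and they are called libraries a and b here.

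The labels give every library the genotype Thy1.2CreERT2-Rosa26-EYFP and no treatment, whereas the study's methods describe wild-type C57BL/6J mice of mixed sex for the 4 unlabelled populations, and Thy1-CreERT2 mice crossed to R26EYFP and given tamoxifen for the YFP+ cells. In those mice the Thy1 promoter drives the inducible Cre, so the YFP mark follows activity of that promoter and not of a keratinocyte promoter. The labelled cell type of the YFP+ libraries reads ScaI negative, against the positive sign in their titles. The label ages differ in every library, from 8 to 27 weeks, and run in blocks by population, so that label age and population cannot be told apart. The study's methods give adult mice of 1 age. Sources disagree on whether single or pooled mice made a library. If the libraries of a population share mice, the p-values below measure spread that may be technical. The hour of harvest, the light cycle, the trypsin step (cold overnight or warm and short) and the sequencing batch of each library were not given in the sources used here. The study names Illumina kits for small RNA and for mRNA libraries, without tying them to single libraries.

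The circadian clock of mammalian cells is a transcriptional loop. BMAL1, encoded by Arntl, pairs with CLOCK and activates genes that carry E-boxes, among them the Per and Cry genes, Nr1d1, Nr1d2 and Dbp. PER and CRY proteins then inhibit the pair, REV-ERBα and REV-ERBβ (Nr1d1 and Nr1d2) repress Arntl, and DBP drives a further set of genes through D-boxes. Arntl mRNA therefore peaks roughly opposite to Dbp and Nr1d1 over the day. The epidermis and the hair follicle have their own running clocks, and Per1 also responds acutely to glucocorticoids and to growth factor signals.

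These motifs were looked for near the starts of the genes. RefSeq promoter windows (GRCm38.p6, 250 bases before to 50 after a start) were found for 9 of the 10 genes, 13 windows in all. None was held for Per2. The E-box CACGTG, the D-box TTANGTAA, the RORE (TAGGTCA or TGGGTCA) and the cyclic AMP response element TGACGTCA were searched on both strands. The stretches with matches upstream of a start are shown because they are where the clock's own activator and its output factor can meet the genes that follow. The matched letters are in capitals, 5′ to 3′ on the strand of the gene.
Cry1, E-box, chr10:85185082-85185141, minus strand: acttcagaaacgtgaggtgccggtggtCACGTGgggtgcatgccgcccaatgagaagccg
Per1, E-box, chr11:69098756-69098815, plus strand: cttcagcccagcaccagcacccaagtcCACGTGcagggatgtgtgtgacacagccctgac
Per3, 2 D-boxes, chr4:151044789-151044897, minus strand: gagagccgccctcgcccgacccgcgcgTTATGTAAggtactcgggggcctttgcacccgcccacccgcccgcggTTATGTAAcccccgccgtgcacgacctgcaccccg

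The Cry1 match began 60 bases before the start. The Per1 match began 166 bases before the start of 1 of the 2 Per1 windows. That start lies inside the gene, whose span begins at chr11:69095217. Both Per3 matches, at 205 and 158 bases before the start, had the same 8 letters. One of the 2 Arntl windows held a RORE letter match 31 bases past its start. No window of the 9 genes held the cyclic AMP response element. Of all 32817 windows, 7.15% held the E-box, 2.32% the D-box, 6.46% the RORE and 1.79% the cyclic AMP response element. A match in these windows is a description of sequence, and the clock also acts through sites that lie elsewhere.

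The libraries held 7781256 to 12982393 reads on genes and the clock genes between 47 and 6241 reads each per library. One Thy1- library, number 4, was deposited with 3212 of its rows out of order. In that order it correlated with the other Thy1- libraries at 0.0506 over the displaced genes, against 0.934 once put back. Nr1d1 and Nr1d2 were among the displaced rows. They read 0 in library 4 as deposited and 1239 and 1057 after the rows were put back, and the restored values are used throughout. The order was restored by name, so the values of library 4 could not be placed between rows that share a name, which was so for 34 of the tested rows and for no clock gene. T cell markers marked the DETC as labelled, with a summed normalised count of 6 genes of 14772 to 32331 against 108 to 381 elsewhere, and 6 follicle stem cell markers summed to 6750 to 10753 in HFSC against 830 to 3110 elsewhere. No T cell marker was at 0 throughout a keratinocyte population. Basal keratinocyte markers still summed to 11941 to 56893 in DETC. In bulk RNA, fewer cells of a type and less RNA per cell cannot be told apart.

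HFSC library 4 stood apart from every other library. Its 8 immediate early genes (Fos, Fosb, Jun, Junb, Egr1, Ier2, Atf3 and Dusp1, which dissociation of tissue is known to induce) summed to 2831, against 28647 to 85080 in the other 19 libraries. It also had the lowest share of reads on the ribosomal RNA gene Rn45s, 13.1% against 18.6% to 41.5%. The clock gene calls of Thy1hi, Thy1- and DETC against HFSC are given with and without it below.

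The libraries divided the clock genes more by population for some members than for others. The population explained 70.1% of the variance of log2 Per1, 60.2% of Cry2, 56.5% of Per2 and 52.5% of Nr1d2, against a median of 47.9% over all tested genes. It explained 20.4% for Clock and 20.5% for Cry1. With HFSC library 4 left out, the shares were 84.6% for Per1, 76.1% for Nr1d1 (41.1% with it), 71.0% for Cry2, 55.5% for Dbp (28.7% with it) and 48.0% for Clock, against a median of 51.0%. With the 5 populations ordered by mean for each gene, 39 of 40 neighbouring pairs overlapped in range. The same ordering was not counted over all tested genes. The exception was Per1, where all DETC libraries lay above the Thy1hi libraries next in order. The ranges of DETC and Thy1hi did not overlap, in either direction, for 33.2% of all tested genes.

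**Figure D1:**
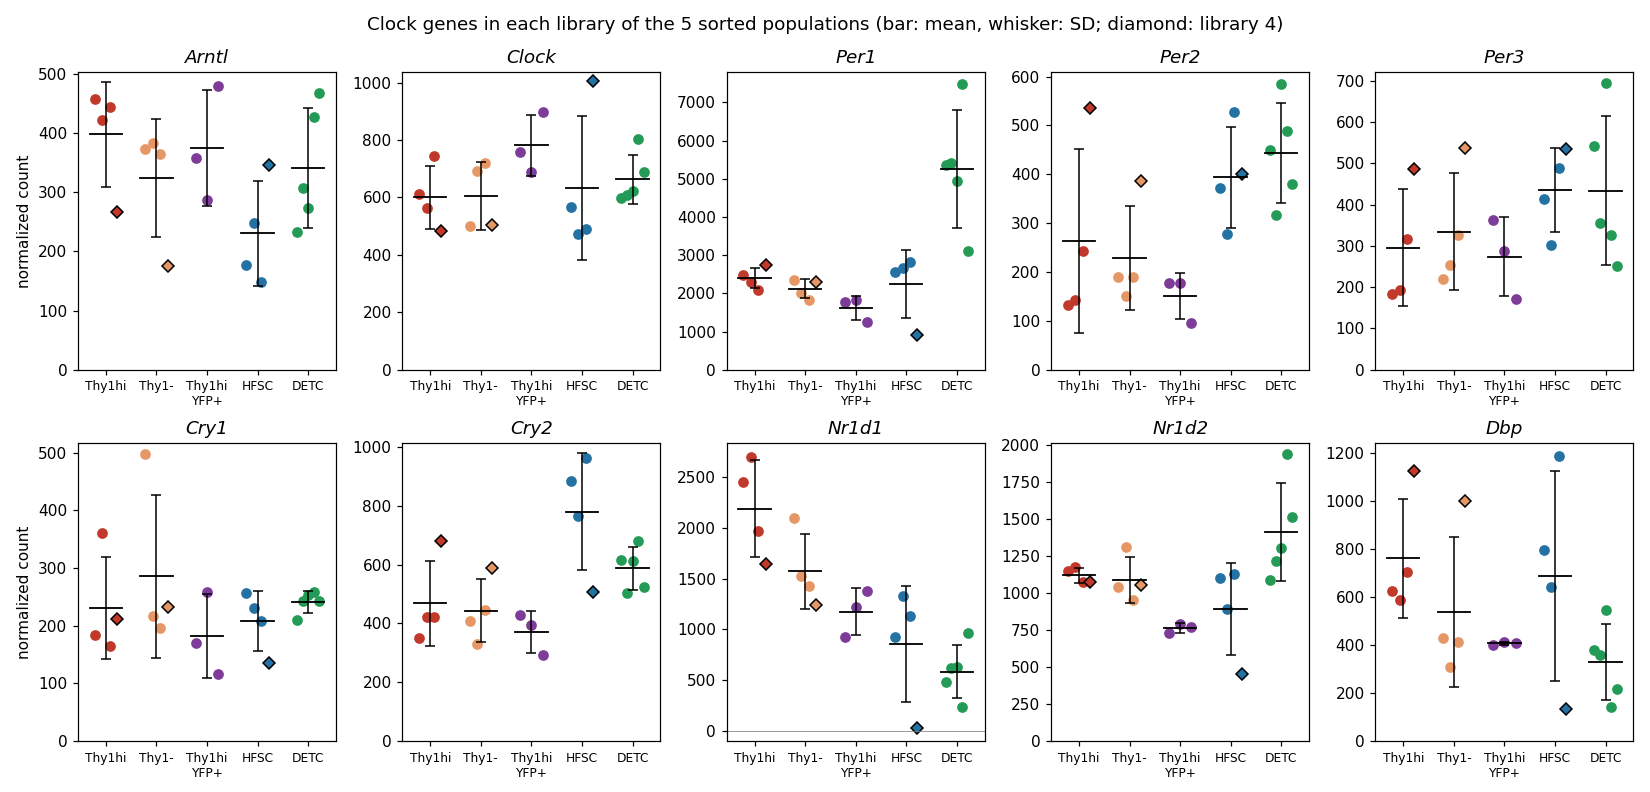
Normalised count (linear axis from 0) of each clock gene in each of the 20 libraries, in 5 sorted populations; points are libraries, diamonds the libraries numbered 4, bars means and whiskers SD. Per1 in DETC lay above all other libraries, and HFSC library 4 was far below the other HFSC libraries in Nr1d1, Dbp and Per1.

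Differences between populations were tested with limma on log2(normalised count + 1) over all 17204 genes and all 20 libraries in 1 fit. Adjusted p-values are Benjamini-Hochberg values over all tested genes, and a gene is called at an adjusted p under 0.05. Fold changes are on the log2(value + 1) scale. Thy1hi and DETC each enter several comparisons, so these are not independent of each other.

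DETC differed from Thy1hi keratinocytes in 4 of 10 clock genes: Per1 and Per2 were higher in DETC, and Nr1d1 and Dbp were lower. Over all genes, 36.6% were called in that comparison, so the share of clock genes was near the background. Against Thy1- in the same fit, Per1 (adjusted p = 0.00137) and Per2 (adjusted p = 0.029) were called higher in DETC. Nr1d1 (log2 -1.54 ± 0.71 SE, adjusted p = 0.102) and Dbp (-0.70 ± 0.49 SE, adjusted p = 0.294) were not called against Thy1-. The share of all genes called against Thy1- is not given here. DETC differed from HFSC in 2 of 10, with Per1 and Nr1d2 higher in DETC, against 39.7% of all genes. Without HFSC library 4 the same comparison called 6 of 10 (40.3% of all genes), adding Arntl, higher in DETC, and Cry2, Dbp and Nr1d1, lower in DETC.

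Cry2 was the 1 clock gene called between unlabelled keratinocytes (Thy1hi or Thy1-) and HFSC. It was lower in Thy1hi than in HFSC (13.4% of all genes called) and lower in Thy1- than in HFSC (6.08% of all genes called). Without HFSC library 4, Thy1hi against HFSC called 2 of 10 (11.5% of all genes), Arntl as higher in Thy1hi beside Cry2, and Thy1- against HFSC called Cry2 again (5.89% of all genes). In the limma fit of all libraries, YFP+ keratinocytes had less Cry2 (log2 -1.04 ± 0.25 SE, adjusted p = 0.00783) and less Per2 (-1.40 ± 0.40 SE, adjusted p = 0.0255) than HFSC. For YFP+ against HFSC, neither the share of all genes called nor a fit without HFSC library 4 is given here. These calls therefore cannot be set against a background.

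No clock gene was called between Thy1hi and Thy1- keratinocytes by limma, where 0.337% of all genes were called, none had an unadjusted p under 0.05, and edgeR and DESeq2 also called 0. The replicate numbers were taken to pair the libraries of these populations. The deviations of same-numbered libraries from their population means correlated at 0.293 to 0.716 over all tested genes in 4 of 4 pairs. Differently numbered libraries correlated at -0.651 to 0.514, so the 2 ranges overlapped. The pairing was thus read from the same data as the paired fit. The labels give same-numbered libraries different ages, so they do not show that these libraries share mice. With the replicate block, 2 of 10 clock genes were called, Dbp (log2 difference 0.60 ± 0.13 SE, adjusted p = 0.0218) and Nr1d1 (0.48 ± 0.11 SE, adjusted p = 0.0318), against 6.61% of all genes. Both were higher in Thy1hi in 4 of 4 pairs. Arntl and Per1 were also higher in Thy1hi in 4 of 4 pairs, with adjusted p = 0.135 and 0.317 in the paired fit. Per3 was lower in Thy1hi in 4 of 4 pairs, with adjusted p = 0.345 in that fit. Markers of other cells moved between these populations too. In the paired fit with rows of 1 name summed, 5 of 5 suprabasal markers (median log2 difference -1.04) and 5 of 6 Langerhans cell markers (median -0.71) were called lower in Thy1hi, and 4 of 5 fibroblast markers (median 1.80) higher, against 6.67% of all genes. Their part in the Dbp and Nr1d1 difference was not tested.

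Same-numbered DETC and HFSC libraries correlated at 0.17 to 0.333 in 3 of 3 pairs, and the other pairings of a DETC with an HFSC library at -0.318 to 0.371. The first range lay inside the second, and the label ages of these pairs differ too. This pairing was also read from the same data as its fit. The replicate block over those 3 pairs, which leaves out HFSC library 4 and DETC libraries a and b, called 6 of 10 clock genes against 42.2% of all genes: Per1, Arntl and Per3 higher, and Cry2, Dbp and Nr1d1 lower in DETC. Nr1d2, called in the fit of all libraries, was not called there (log2 0.21 ± 0.12 SE, adjusted p = 0.171).

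YFP+ and unlabelled Thy1hi keratinocytes were not called different in any clock gene by limma (0.0116% of all genes called), and edgeR and DESeq2 called 0. At an unadjusted p under 0.05, 1 gene passed, Nr1d2 (log2 difference -0.55 ± 0.25 SE, adjusted p = 0.525). Of the 10 point estimates, 9 were below 0, with a median log2 difference of -0.45 against -0.04 over all tested genes. For 4 genes, Per1, Dbp, Nr1d1 and Nr1d2, every YFP+ library lay below every Thy1hi library. The ranges did not overlap, in either direction, for 10.5% of all tested genes in that comparison. Scaled to the same total without Rn45s, the log2 difference of Per3 turned to 0.01, and the other 8 of the 9 kept their sign. Other lists lay to 1 side in the same comparison with 0 called: 8 of 8 immediate early genes (median -0.51), 6 of 6 glucocorticoid-induced genes (-0.69) and 5 of 5 fibroblast markers (-2.24) were below 0, and 5 of 5 suprabasal markers (1.19) above. Their part in the clock gene estimates was not tested.

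**Figure D2:**
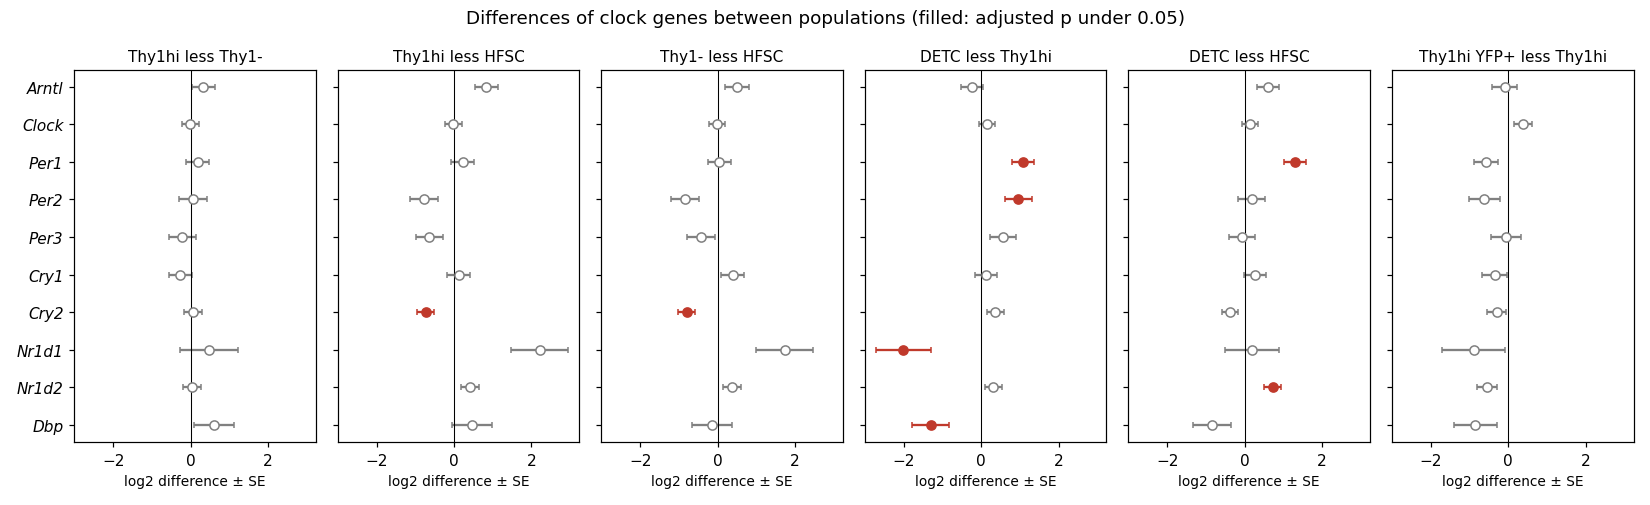
Log2 difference ± SE of each clock gene in the 6 comparisons (limma, all 20 libraries); filled red points have an adjusted p under 0.05. Per1 is filled in both DETC comparisons, Cry2 in both comparisons of unlabelled keratinocytes with HFSC, and Nr1d1 has the widest error bars.

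Neither activator gene was called between populations in the fit of all libraries. Arntl (ENSMUSG00000055116.8, chr7:113207465-113314126, mm10) had normalised counts of 458, 421, 445 and 267 in Thy1hi libraries 1 to 4, 373, 383, 364 and 175 in Thy1-, 358, 286 and 481 in YFP+, 178, 249, 149 and 347 in HFSC, and 233, 307, 273, 427 and 468 in DETC libraries 1, 2, 3, a and b. In each of the Thy1hi and Thy1- sets, libraries 1 to 3 lay close together and library 4 lay below them. HFSC had the lowest mean, 230 ± 88.2 (SD, n = 4), and Thy1hi the highest, 398 ± 88.6 (SD, n = 4), with overlapping ranges (log2 difference 0.83 ± 0.30 SE, adjusted p = 0.0736). Leaving out HFSC library 4 gave 1.05 ± 0.30 SE, adjusted p = 0.0277.

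Clock (ENSMUSG00000029238.11, chr5:76209868-76304792), the partner of BMAL1, ranged from 471 to 1006 over all 20 libraries. The 2 ends of that range were both HFSC, library 2 and library 4. Its population means lay between 601 and 781, every one of the 6 comparisons had an adjusted p of 0.621 or above, and its within-population SD of log2 values was 0.307. Clock mRNA is known for a flat daily profile in many tissues.

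Of the Per genes, the inhibitory arm that responds most quickly to outside signals, Per1 set the DETC apart. Per1 (ENSMUSG00000020893.17, chr11:69095217-69109960) had counts of 5368, 5404, 4934, 7469 and 3119 in DETC. In Thy1hi it read 2477, 2302, 2096 and 2730, in Thy1- 2347, 2019, 1814 and 2302, in YFP+ 1778, 1831 and 1259, and in HFSC 2556, 2674, 2812 and 914. Every DETC library was above all 15 others. Ranges did not overlap for 33.2% of all tested genes between DETC and Thy1hi, and for 32.5% between DETC and HFSC. Per1 was 2.12-fold higher in DETC than in Thy1hi (log2 1.08 ± 0.28 SE, adjusted p = 0.00402, exact two-sided permutation p = 0.0159, smallest possible 0.00794) and 2.47-fold higher than in HFSC (log2 1.31 ± 0.28 SE, adjusted p = 0.000858). The second difference was 0.92 ± 0.21 SE with adjusted p = 0.00159 when HFSC library 4 was left out.

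Per2 (ENSMUSG00000055866.9, chr1:91415982-91459324) read 132, 142, 244 and 536 in Thy1hi and 190, 150, 189 and 386 in Thy1-, so that library 4 was the highest of both sets. It read 177, 177 and 96.1 in YFP+, 372, 277, 527 and 401 in HFSC, and 449, 316, 584, 488 and 381 in DETC. The DETC range lay above libraries 1 to 3 of Thy1hi and took in library 4. The log2 difference of DETC from Thy1hi was 0.96 ± 0.35 SE (adjusted p = 0.0369), but edgeR and DESeq2 on recovered reads gave adjusted p = 0.14 and 0.0995, and the exact permutation p was 0.0873.

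Per3 (ENSMUSG00000028957.12, chr4:151003652-151044665), whose promoter window held the D-box letters at 2 places, read 183, 194, 316 and 487 in Thy1hi, 220, 255, 327 and 536 in Thy1-, and 362, 287 and 172 in YFP+. In HFSC it read 413, 302, 490 and 534, and in DETC 541, 355, 694, 325 and 251. Library 4 was again the highest of the Thy1hi, Thy1- and HFSC sets. No comparison called Per3 in the fit of all libraries. The lowest adjusted p was 0.193 for DETC against YFP+, at a log2 difference of 0.63 ± 0.37 SE. For DETC against Thy1hi it was 0.205, at a log2 difference of 0.57 ± 0.34 SE.

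Of the cryptochromes, which hold CLOCK and BMAL1 inactive, Cry2 and not Cry1 was called between populations. Cry2 (ENSMUSG00000068742.11, chr2:92403646-92434043) read 885, 767, 961 and 507 in HFSC, 351, 423, 420 and 679 in Thy1hi, 410, 330, 447 and 587 in Thy1-, 430, 395 and 292 in YFP+, and 615, 503, 613, 679 and 524 in DETC. HFSC libraries 1 to 3 lay above all other 17 libraries, and HFSC library 4 lay among them. Cry2 was lower in Thy1hi than in HFSC by a log2 difference of -0.74 ± 0.23 SE (adjusted p = 0.0349), and in Thy1- by -0.80 ± 0.23 SE (adjusted p = 0.0394). Without HFSC library 4 these were -0.93 ± 0.22 SE (adjusted p = 0.00785) and -1.0 ± 0.22 SE (adjusted p = 0.0107). The exact permutation p was 0.0571 in both, where 0.0286 is the smallest possible. Leaving out library 1, 2 or 3 of HFSC or of the keratinocyte population concerned lost the call in both, with differences of -0.74 to -0.62 in the first and -0.82 to -0.67 in the second.

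Cry1 (ENSMUSG00000020038.10, chr10:85131700-85185064) lay between 116 and 497 over all libraries. No comparison called it in the fit of all libraries. The lowest adjusted p was 0.239 for DETC against YFP+, at a log2 difference of 0.48 ± 0.31 SE. DETC were the most uniform, at 210 to 259. Thy1- library 1, at 497, and Thy1hi library 2, at 361, were the 2 highest and share neither number nor population.

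The REV-ERB genes, repressors of Arntl, did not follow each other across populations. Nr1d1 (ENSMUSG00000020889.11, chr11:98767932-98775333) read 2451, 2702, 1970 and 1640 in Thy1hi, 2097, 1530, 1432 and 1239 in Thy1-, 924, 1216 and 1379 in YFP+, 921, 1333, 1128 and 32.9 in HFSC, and 479, 618, 630, 233 and 961 in DETC. All Thy1hi libraries were above all YFP+, HFSC and DETC libraries. Ranges did not overlap with Thy1hi, in either direction, for 10.5% (YFP+), 19.3% (HFSC) and 33.2% (DETC) of all tested genes. Nr1d1 was 4.05-fold lower in DETC than in Thy1hi (log2 -2.02 ± 0.71 SE, adjusted p = 0.0299, exact permutation p = 0.00794, the smallest possible), and all 5 DETC libraries lay below all 4 Thy1hi libraries. Against HFSC, Thy1hi had a log2 difference of 2.21 ± 0.75 SE (adjusted p = 0.0556), which was 0.95 ± 0.33 SE (adjusted p = 0.0676) without HFSC library 4. The direction of DETC against HFSC turned with that library: 0.19 (adjusted p = 0.853) with it, and -1.07 ± 0.31 SE (adjusted p = 0.0102) without it.

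Nr1d2 (ENSMUSG00000021775.11, chr14:18204054-18239127) read 1147, 1179, 1076 and 1073 in Thy1hi, 1039, 1314, 955 and 1057 in Thy1-, 730, 792 and 772 in YFP+, 1102, 892, 1128 and 451 in HFSC, and 1087, 1219, 1307, 1939 and 1516 in DETC. It was called higher in DETC than in HFSC (log2 0.72 ± 0.22 SE, adjusted p = 0.0123), and its difference without HFSC library 4 was 0.42 ± 0.16 SE (adjusted p = 0.0465). The call was lost in the paired fit given above. In DETC against Thy1hi it was 0.31 ± 0.22 SE (adjusted p = 0.302), on the other side of 0 from Nr1d1.

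Dbp (ENSMUSG00000059824.12, chr7:45705088-45710203), a PAR bZIP factor and a direct output of the BMAL1 and CLOCK pair, read 627, 589, 705 and 1127 in Thy1hi and 429, 310, 412 and 1000 in Thy1-. It read 399, 414 and 408 in YFP+, 795, 644, 1190 and 132 in HFSC, and 381, 358, 549, 140 and 219 in DETC. Dbp was 2.48-fold lower in DETC than in Thy1hi (log2 -1.31 ± 0.49 SE, adjusted p = 0.0403), and the ranges did not overlap, which was so for 33.2% of all genes in that comparison. The limma call was lost without DETC library a (-1.04, adjusted p = 0.115) or b (-1.20, adjusted p = 0.0835). Leaving out Thy1hi library 1, 3 or 4 lost it too. The replicate block, which leaves out DETC libraries a and b, called a smaller difference (-0.60, adjusted p = 0.00627). The 3 YFP+ libraries differed by 1.04-fold from lowest to highest, whereas HFSC differed 9.03-fold, and 1.85-fold without library 4.

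Within a population, the clock genes varied from library to library by unequal amounts. The within-population SD of log2 values was 1.22 for Nr1d1 and 0.83 for Dbp, larger than for 98.6% and 95.2% of tested genes of similar level (within 0.5 log2 units of its mean, 783 and 1594 genes). Clock, Cry2 and Nr1d2 had 0.31, 0.33 and 0.34, near the middle for their levels. Much of the Nr1d1 value came from 1 library: without HFSC library 4 the SD was 0.48 for Nr1d1 and 0.59 for Dbp, and the SDs of Per2 and Per3 were 0.60 and 0.57, against 0.58 and 0.56 with it.

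Libraries with less Arntl than the rest of their population had more Dbp. Over 20 libraries, with the population mean removed from each log2 value, Arntl and Dbp correlated at Pearson r = -0.84 and Spearman rho = -0.87 (permutation of libraries within populations, 100000 draws, two-sided, p = 2.6e-04 and 2.4e-04, adjusted over 9 relations p = 0.0023 and 0.0022). The 2 libraries farthest from the Arntl median were Thy1- library 4 and HFSC library 3, and without them r was -0.77 (adjusted p = 0.028). Leaving out HFSC library 4 gave r = -0.84. With 1 population left out at a time, r lay between -0.87 and -0.81. With Thy1hi and Thy1- libraries of 1 number averaged, since they may share mice, r was -0.82 (permutation p = 0.001).

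The relations of Arntl with the other members fell into 3 kinds. Cry2 (r = -0.77, adjusted p = 0.0047), Per3 (r = -0.68, adjusted p = 0.0085), Per2 (r = -0.65, adjusted p = 0.0092) and Per1 (r = -0.56, adjusted p = 0.037) ran against Arntl, and Clock ran with it (r = 0.71, adjusted p = 0.0047), all by the same permutation test. Rank correlations kept these on the same side of 0.05, with rho from -0.75 to -0.55 for the first 4 and 0.72 for Clock. Cry1 (r = -0.19), Nr1d1 (r = -0.30) and Nr1d2 (r = -0.17) had adjusted p of 0.497 or above. Without the 2 libraries farthest from the Arntl median, Per1, Per2 and Per3 had r = -0.55, -0.50 and -0.60, which no longer passed (adjusted p = 0.136, 0.105 and 0.074). Without HFSC library 4, Per3 had r = -0.85 (adjusted p = 0.0026), Per1 had -0.39 (adjusted p = 0.220), and Nr1d1 changed sign, to 0.28 (adjusted p = 0.375).

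**Figure D3:**
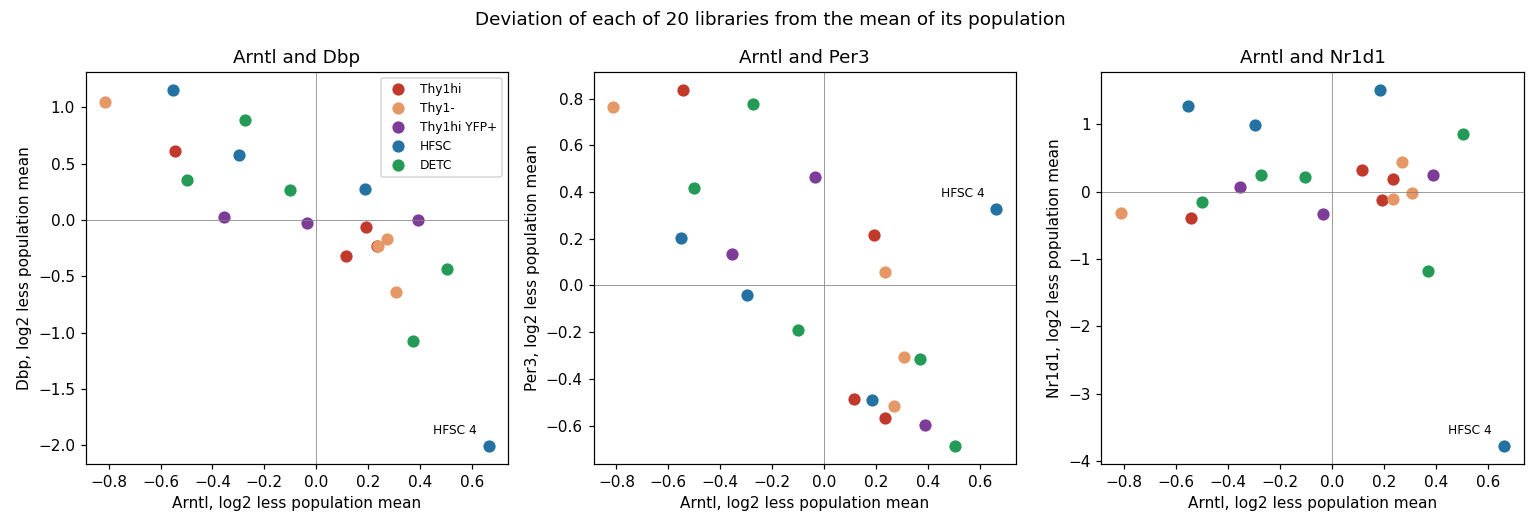
Log2 deviation of each of the 20 libraries from its population mean, for Arntl on the horizontal axis and Dbp, Per3 or Nr1d1 on the vertical axis; each point is a library, coloured by population. Dbp ran against Arntl (r = -0.84), Per3 did so with r = -0.68 (-0.85 without HFSC library 4), and the Nr1d1 panel showed no such line apart from that library.

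The libraries numbered 4 carried part of this pattern in the keratinocytes. In Thy1hi and Thy1- library 4, all 10 clock genes deviated from the population mean in the same direction in both, whereas 7, 7 and 8 of 10 did for numbers 1, 2 and 3. Relative to libraries 1 to 3, both had lower Arntl and higher Per2, Per3, Cry2 and Dbp. The summed immediate early genes were also highest in those libraries, 85080 against 47024 to 64898 in Thy1hi and 78457 against 39313 to 44883 in Thy1-. The summed glucocorticoid-induced genes Fkbp5, Tsc22d3, Sgk1, Klf9, Zbtb16 and Errfi1 were 6303 against 4101 to 4336 and 5107 against 3494 to 3816. The part of either in the clock gene levels was not tested.

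Pooled over all populations, Dbp followed the immediate early genes. The log2 of their summed count and log2 Dbp, both less the population mean, correlated at r = 0.86 and rho = 0.85 over 20 libraries (permutation within populations, adjusted over 10 relations p = 0.0019 and 0.0065), and at r = 0.81 without HFSC library 4 (adjusted p = 0.0070). Arntl ran the other way, at r = -0.60 (adjusted p = 0.015) and -0.68 without HFSC library 4 (adjusted p = 0.041). Without the 2 libraries farthest from the median of the sum, Dbp had r = 0.81 (adjusted p = 0.020) and Arntl -0.67 (adjusted p = 0.062). No population was tested alone, and in YFP+ the library with the lowest sum (34479) had the highest Dbp (414). Nr1d1 and Per1 had r = 0.87 and 0.74 with HFSC library 4, and -0.08 and -0.02 without it, with adjusted p of 0.251 or above in each case. This measure and the next were chosen after the values were seen.

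**Figure D4:**
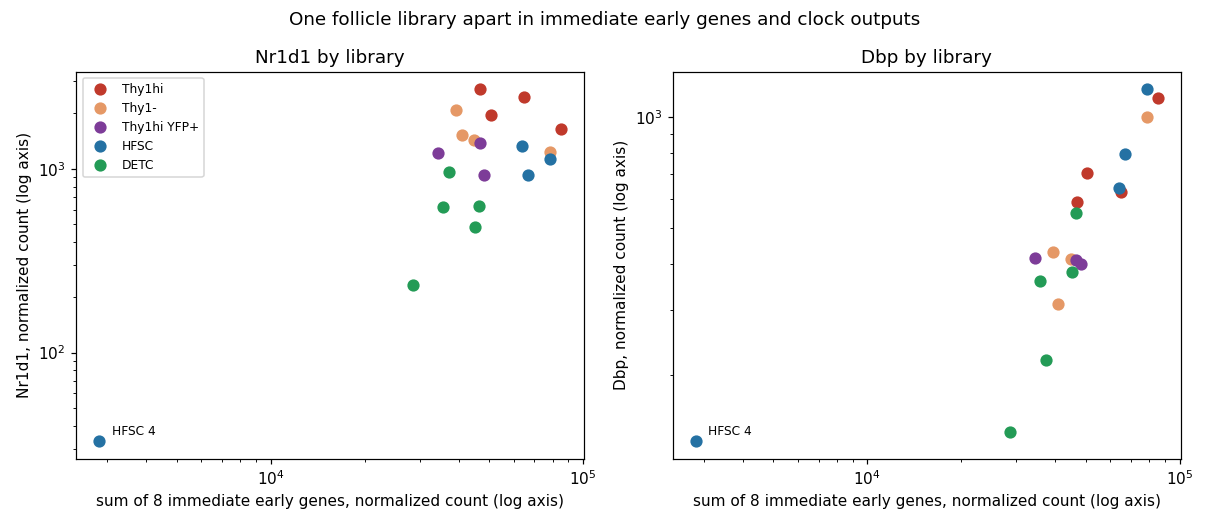
Normalised count of Nr1d1 and of Dbp (log axis) against the summed normalised count of 8 immediate early genes (log axis) in each of 20 libraries, coloured by population. HFSC library 4 lies alone at a sum of 2831, with Nr1d1 at 32.9 and Dbp at 132, and Dbp within populations runs with the sum without that library too (r = 0.81).

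The share of reads on Rn45s also varied within populations. It ran against Clock (r = -0.90, permutation within populations, adjusted over 10 relations p = 0.0063), at r = -0.74 and adjusted p = 0.111 without the 2 libraries farthest from its median. Dbp and Nr1d1 had r = 0.70 and 0.75 with that share, and Arntl -0.55, each with adjusted p = 0.077. With libraries scaled to the same total without Rn45s, Arntl and Dbp correlated at -0.77 (permutation p = 0.0014).

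The tested genes outside the members most like Dbp within populations were Dpysl3 (r = 0.912), Egr1 (0.911), Gm23624 (0.906), Klf9 (0.905) and Jund (0.902). Egr1 and Jund encode immediate early and AP-1 transcription factors, and Klf9 is a Krüppel-like factor induced by glucocorticoids. Those most like Arntl were Gm44168 (r = 0.910), Gm42829 (0.907), Leo1 (0.864), Gm37521 (0.862) and AC124414.1 (0.856). Leo1 encodes a subunit of the PAF1 elongation complex. These correlations were ranked over 17204 genes on the same 20 libraries and are a description, without a test. Without HFSC library 4, the 5 genes named for Dbp had r = 0.79 to 0.84 and ranks 59 to 179, and the genes most like Dbp were Ptpn14 (r = 0.920), Pik3r2 (0.908), Elp3 (0.906), Nudt2 (0.904) and Ap5z1 (0.900). For Arntl, Gm42829 (r = 0.891) and Gm44168 (0.888) stayed the first 2.

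Outside the 10 genes, 18 further genes of the clock network were listed and 17 passed the filter on low values. DETC differed from Thy1hi in 8 of the 17, 3 higher and 5 lower, against 36.6% of all genes (median log2 difference -0.15, against -0.0044 over all tested genes). Nfil3, the repressor that competes with DBP for D-boxes, was higher in DETC (log2 2.04 ± 0.33 SE, adjusted p = 5.16e-05), at counts of 1566 to 2921 against 383 to 529 in Thy1hi. It lay opposite to Dbp, which was lower in DETC. Csnk1e, which encodes casein kinase 1ε, was also higher, by 0.60 (adjusted p = 0.0402). Bhlhe40 (DEC1, a repressor at E-boxes, log2 -1.90), Npas2 (a stand-in for CLOCK, -1.90), Timeless (-1.19), Hlf (a relative of Dbp, -0.84) and Rora (an activator of Arntl, -0.76) were lower in DETC.

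Against HFSC, where 39.7% of all genes were called, DETC differed in 8 of the 17, with Nfil3 (log2 1.83), Ciart (1.55), Csnk1d (0.60) and Fbxw11 (0.49) higher, and Npas2 (-2.67), Bhlhe41 (-2.40) and Tef (-1.08) among those lower. Ciart encodes a further repressor of the CLOCK and BMAL1 pair, and Tef is a relative of Dbp. The median was 0.18, against 0.02 over all tested genes. When HFSC library 4 was left out, 6 of the 17 were called (40.3% of all genes), Ciart at 0.86 among them, and Csnk1d (0.39, adjusted p = 0.0563) and Fbxw11 (0.36, adjusted p = 0.0838) were not.

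Between keratinocytes and HFSC the paired repressors DEC1 and DEC2 went opposite ways. Thy1hi had more Bhlhe40 (log2 2.42 ± 0.56 SE, adjusted p = 0.00559) and less Bhlhe41 (-2.20 ± 0.48 SE, adjusted p = 0.00382) than HFSC. Bhlhe40 counts were 5940 to 7231 in Thy1hi and 2241, 2234, 2298 and 172 in HFSC, and Bhlhe41 counts were 27.7 to 66.0 against 166, 161, 396 and 92.5. The differences without HFSC library 4 were 1.5 (adjusted p = 0.000487) and -2.51 (adjusted p = 0.00214). Thy1- gave the same calls, at 2.0 (adjusted p = 0.0361) and -1.91 (adjusted p = 0.021). Rora was higher in Thy1hi than in HFSC (0.79, adjusted p = 0.00531). Timeless (1.37) and Csnk1d (0.75) were also called higher in Thy1hi, which made 6 of 17 in all (13.4% of all genes), and 4 of 17 were called in Thy1- (6.08% of all genes), Timeless (0.97, adjusted p = 0.0254) among those higher. These counts without HFSC library 4 were 7 and 3 of 17 (11.5% and 5.89% of all genes): Nfil3 was then called lower in Thy1hi (-0.72, adjusted p = 0.0415) and in Thy1- (-0.80, adjusted p = 0.0391), and 2 genes were no longer called in Thy1-, Timeless among them (adjusted p = 0.0548). None of the 17 was called between Thy1hi and Thy1-, or between YFP+ and Thy1hi keratinocytes, where Csnk1e (-0.59) in the first and Bhlhe40 (-0.90) and Hlf (-0.88) in the second were among the largest differences. With the replicate block and rows of 1 name summed, 2 of the 17 were called between Thy1hi and Thy1- (6.67% of all genes), Hlf higher (0.46, adjusted p = 0.0419) and Csnk1e lower (adjusted p = 0.0329) in Thy1hi.

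Of 10 tested clock-controlled output genes, DETC had more Lpin1 (log2 2.23 ± 0.29 SE, adjusted p = 3.61e-06) and Usp2 (0.84, adjusted p = 0.0181) and less Wee1 (-1.18, adjusted p = 0.000568) and Klf9 (-1.30, adjusted p = 0.0076) than Thy1hi. These 4 of 10 were near the 36.6% of all genes called in that comparison. Lpin1 encodes a phosphatidate phosphatase and Wee1 a kinase that holds back mitosis. Lpin1 was also higher in DETC than in HFSC (2.26, and 2.01 without HFSC library 4), and Wee1 higher in Thy1hi than in HFSC (1.13, adjusted p = 0.00488, and 0.86 without that library). All 10 had a point estimate above 0 in Thy1hi against Thy1-, with a median log2 difference of 0.16 against -0.02 over all tested genes when the 2 rows named Pnp were summed, and none was called. With the replicate block, Wee1 (0.51, adjusted p = 0.0134) and Klf9 (0.49, adjusted p = 0.0137) were called higher in Thy1hi, in a fit that called 6.67% of all genes. Of the glucocorticoid-induced genes, that fit called Klf9 and Errfi1 (0.73, adjusted p = 0.0113) higher and Sgk1 (-0.71, adjusted p = 0.00228) lower in Thy1hi, and of the immediate early genes Dusp1 higher (0.60, adjusted p = 0.0162). Of the 6 glucocorticoid-induced genes, Zbtb16 was lower in DETC than in Thy1hi (-1.09) and HFSC (-1.89, and -1.83 without HFSC library 4), Klf9 lower than in Thy1hi as above, and Errfi1 higher than in HFSC (1.41, adjusted p = 0.0138, and 0.67, adjusted p = 0.0227, without that library). Of the 8 immediate early genes, Junb alone was called in the 6 comparisons, higher in DETC than in HFSC (1.83, adjusted p = 0.02). Without HFSC library 4, 6 of the 8 were called between DETC and HFSC, where 40.3% of all genes were, Junb higher (0.71, adjusted p = 0.00263) and Jun, Egr1, Ier2, Atf3 and Dusp1 lower in DETC. The same fit called 3 of 10 output genes and 3 of 6 glucocorticoid-induced genes in that comparison, with Klf9 lower in DETC in both lists. In the paired fit of DETC and HFSC with rows of 1 name summed (42.2% of all genes called), 6 of the 17 network genes, 4 of 10 output genes, 4 of 6 glucocorticoid-induced genes and 7 of 8 immediate early genes were called.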

How the data were processed

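RNA-seq of 20 libraries was analysed from 1 deposited table. Per the labels and the study's methods, STAR was used by the authors for alignment to mm10, featureCounts for counting over genes and DESeq2 for normalisation. The deposited values are a signal of reads divided by 1 factor per library. Of the low values, 100% were whole multiples of what 1 read was worth (within 0.1 read), and reads were recovered from them. Strand settings were not given in the sources used here. The rows of Thy1- library 4 were put back in order.

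The main test was limma 3.58.1 (R 4.3.3, trend, two-sided) on log2(value + 1), with Benjamini-Hochberg adjustment over 17204 genes. edgeR 4.0.16 and DESeq2 1.42.0 on recovered reads were alternatives. Single genes were also tested by exact permutation of mean log2 values. The scripts were tested on simulated data. The members and gene lists were chosen with earlier results of these data known. Named were all 10 members, the genes of each list that were called or had the 2 largest changes, and the 5 genes most like Dbp and Arntl. Of the clock network list, 2 genes enter the counts and are not reported here by name. Replicate numbers were taken to pair libraries where every same-numbered pair correlated above 0.1. Fits of the gene lists without HFSC library 4, with rows of 1 name summed or with the replicate block, and fits without all libraries 4, were chosen after seeing the data.

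Markers of other cells were checked by summed values over all libraries. They were 422 to 6148 for 6 Langerhans cell markers, 35.3 to 286 for 5 melanocyte markers, 44.6 to 1932 for 5 fibroblast markers and 3555 to 52817 for 5 suprabasal markers. Of the sorting markers, Thy1 was called higher in Thy1hi than in Thy1- (log2 3.16, adjusted p = 0.000397), and Ly6a (Sca1) was not (0.90).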

Additional observations from a re-analysis of the deposited data

Results flagged for a closer look

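Among 40 sets of 1 clock gene in 1 population of 4 or 5 libraries, 4 held a library whose gap to the next was beyond Dixon's 95% limit. Chance alone is expected to flag about 1 set in 20. Arntl in Thy1- library 4 was 175, against 364 to 383 in libraries 1 to 3. Per2 in the same library was 386, against 150 to 190. Per1 in HFSC library 4 was 914, against 2556 to 2812. Cry1 in Thy1- library 1 was 497, against 196 to 232. Nr1d1 in HFSC library 4, at 32.9 against 921 to 1333, did not pass the limit, which compares linear counts within the set.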

How the results depend on the processing

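Per1 was called higher in DETC under 19 of 19 alternatives against both Thy1hi (log2 0.94 to 1.26) and HFSC (0.92 to 1.48), and Arntl against Dbp kept its direction and its call in 31 of 31 (r from -0.87 to -0.77). Other calls held less often: Nr1d1 in 14 of 19, Dbp in 13 of 19 and Per2 in 9 of 19 for DETC against Thy1hi, Nr1d2 in 15 of 19 for DETC against HFSC, and Cry2 in 9 of 18 and 8 of 18 for Thy1hi and Thy1- against HFSC. No call reversed its direction.

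Between Thy1hi and HFSC, 1 clock gene was called, against 2 with a pseudocount of 10 or the same total without Rn45s, 0 with no filter, with only those 2 populations or with the replicate block, and 4 without libraries 4. Leaving out 1 library gave 0 (Thy1hi 1, 2 or 3) to 3 (Thy1hi 4). Between Thy1- and HFSC, 1 was called, against 0 with no filter, the same total, only those 2 populations or the replicate block, 4 without libraries 4, and 0 to 1 on leaving out 1 library. The same total moved the median of all genes there from 0.04 to 0.17. Between DETC and Thy1hi, 4 were called, against 2 with no filter and 7 with the replicate block, and 1 (without Thy1hi 1, Thy1hi 3 or DETC a) to 4 on leaving out 1 library. Between DETC and HFSC, 2 were called, against 1 with only those 2 populations or the rows as deposited, 6 with the replicate block, 5 without libraries 4, and 2 to 6 (without HFSC 4) on leaving out 1 library. Between Thy1hi and Thy1-, 0 were called, and 2 with the replicate block. The share of all genes called moved as well: for DETC against Thy1hi it was 36.6%, 13.0% with no filter and 42.7% with the block, for Thy1hi against HFSC 13.4%, 3.96% with no filter, 7.96% with the block and 18.4% without libraries 4, and for Thy1- against HFSC 6.08%, 1.7%, 1.91% and 17.3%. For DETC against HFSC it was 39.7%, 33.1% with only those 2 populations, 37.5% with the rows as deposited, 42.2% with the block and 43.0% without libraries 4. With only 2 populations it was 10.7% for Thy1hi and 3.72% for Thy1- against HFSC. Summing rows that share a name left the count of clock genes called in each of the 6 comparisons as it was. The cause of these moves was not tested, except that the block and the left-out libraries use fewer samples. With the rows as deposited, Nr1d1 and Nr1d2 read 0 in Thy1- library 4, which is an error of row order. The limma differences then stayed as they were and the calls were lost. These were Nr1d1 for DETC against Thy1hi (-2.02, adjusted p = 0.378) and Nr1d2 for DETC against HFSC (0.72, adjusted p = 0.712).

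Over all genes, Thy1hi against Thy1- called 58, against 44 by edgeR, 210 by DESeq2, 95 with only those 2 populations and 1137 with the replicate block. Leaving out 1 library gave 13 to 38 there. Thy1- against HFSC called 1046, against 1288 by edgeR, 2402 by DESeq2, 640 with only those 2 populations and 329 with the block. Without 1 library at a time it called 511 to 1965. YFP+ against Thy1hi called 2, against 2 by edgeR, 102 by DESeq2, 25 with a pseudocount of 10, 16 with only those 2 populations and 9 with the block. Thy1hi against HFSC called 2300, against 2498 by edgeR and 1369 with the block. Same-numbered libraries of the last 3 comparisons, and of DETC and Thy1hi, did not all correlate above 0.1 (lowest correlations -0.225, -0.04, -0.232 and -0.118). The block there was therefore not taken as a pairing. For these libraries, as for the pairs that were used, the labels give only a number. Low correlations do not show that no mice were shared.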
